A study of Capra hircus with 14 samples.

Results

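Genes of the cell cycle were followed in goat (Capra hircus) cells during a protocol that aims to turn fibroblasts into mammary epithelial cells with small molecules. The 48 genes were chosen by symbol from the 30277 genes of the count table, and all 48 were found. A G1/S and S list of 19 genes holds the regulators of entry into DNA replication, the proteins that load and start the replicative helicase, and enzymes of DNA synthesis. A G2/M list of 25 genes holds a transcription factor, mitotic kinases and cyclins, spindle and chromosome proteins, and regulators of anaphase. The remaining 4 genes (CCND1, CDK4, CDK2 and MYBL2) act in G1 or in more than 1 phase and were kept outside both lists.

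Day 0 cells, labelled GEF, were wild-type goat fibroblasts in fibroblast medium, DMEM with serum. Cells of days 1, 2, 3, 4, 6 and 8 had that medium replaced by one called R induction medium, which was renewed at 2-day intervals, and the day 8 cells formed primary colonies, per the labels. The makeup of R induction medium is not known here, and every induced day differs from day 0 in both medium and time in culture, so these cannot be told apart. Nor can the sampled day be told apart from the time since the medium was last renewed. Total RNA without ribosomal RNA was sequenced in 14 libraries, 2 for each of the 7 days, with 20515126 to 24746010 estimated counts per library. The labels do not say that the 2 libraries of a day came from separate cultures, so the p-values speak only of the variation among the libraries at hand, which could be technical. All 5 fibroblast markers examined (VIM, COL1A1, COL1A2, PDGFRB and S100A4) were present throughout, with summed levels of 13560 to 13880 CPM at day 8 and 25500 to 26480 CPM at day 0 (CPM, scaled counts that are comparable between libraries) and the other days given beside the steps of the cell cycle genes. The day 0 cells also carried epithelial keratins. The basal genes KRT5, KRT14 and TP63 summed to 39840 to 40700 CPM at day 8 and to 7821 to 8681 CPM at day 0. The luminal genes KRT8, KRT18, CDH1 and EPCAM summed to 478 to 479 CPM at day 8 and to 2180 to 2340 CPM at day 0, but the 4 genes did not change in 1 direction. KRT8 averaged 169.9 CPM at day 8 and 1910 CPM at day 0, and KRT18 averaged 1.573 CPM at day 8 and 158.1 CPM at day 0. CDH1 averaged 215.5 CPM at day 8 and 110.1 CPM at day 0, and EPCAM averaged 91.82 CPM at day 8 and 81.35 CPM at day 0. The milk protein genes CSN2, CSN1S1 and LALBA and the leukocyte gene PTPRC had 0 counts in all libraries, and CSN3 and the endothelial gene CDH5 at most 1 count in a library. The other endothelial gene examined, PECAM1, had 0 to 0.129 CPM at day 8 and 1.113 to 1.125 CPM at day 0. CD14, a gene of myeloid leukocytes, had 8.26 to 8.39 CPM at day 8 and 128.9 to 129.1 CPM at day 0. These are whole cultures, so fewer dividing cells and less RNA of a gene per dividing cell cannot be told apart, and neither can a shift between cell types, whose part in the results was not tested.

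A dividing cell passes through G1, copies its DNA in S phase, and after G2 separates the copies in mitosis. Cyclin D with CDK4, and then cyclin E with CDK2, inactivate the RB protein and so release E2F transcription factors, which switch on genes for DNA replication. Later, the factor B-MYB (MYBL2) and FOXM1 switch on genes of G2 and mitosis, and the anaphase-promoting complex then destroys cyclins and securin so that the cell can divide. Since many of these mRNAs are made mainly in their own phase, their summed level in a culture follows both the share of dividing cells and where in the cycle they are.

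All 48 genes passed the filter on low counts and all 48 differed between days (edgeR quasi-likelihood F test over 7 days, adjusted p under 0.05), as did 92.4% of the 15712 genes tested. The members went down and up between sampled days rather than in 1 direction. At day 1 against day 0, 15 were higher and 25 lower of the 48, where 34.8% of all genes tested were called higher and 34.5% lower. At day 2 against day 1, 1 was higher and 40 lower, where 25.3% of all genes tested were called higher and 23.1% lower. At day 3 against day 2 the majority turned, with 37 higher and 1 lower, where 21.2% of all genes tested were called higher and 24.1% lower. Day 4 against day 3 gave 3 higher and 39 lower, where 28.8% of all genes tested were called higher and 21.6% lower. Day 6 against day 4 gave 18 higher and 2 lower with 28 not called, where 23.0% of all genes tested were called higher and 31.2% lower. Day 8 against day 6 gave 34 higher and 5 lower, where 25.6% of all genes tested were called higher and 23.2% lower. The counts of lower members at days 1, 2 and 4, and of higher members at days 3, 6 and 8, stood above the share of all genes called in that direction. The 15 higher at day 1 stood near it. The members took 0.5025% of all counts at day 0, 0.519% at day 1, 0.3495% at day 2, 0.493% at day 3, 0.325% at day 4, 0.4125% at day 6 and 0.4515% at day 8. The summed fibroblast markers were at 25500 to 26480 CPM at day 0, 27820 to 27920 at day 1, 25870 to 27350 at day 2 and 15410 to 16250 at day 3. They were at 21710 to 22180 CPM at day 4, 17670 to 17760 at day 6 and 13560 to 13880 at day 8. This sum was thus lower where most called members were higher, at days 3, 6 and 8, and higher where most were lower, at day 4, each against the sampled day before, while at day 2 both were lower. The summed basal genes had their lowest values at day 1 (2631 to 2654 CPM) and were higher at each later sampled day than at the one before, and the part of either marker list in the steps was not tested. The small counts against the majority depended on single libraries. The 1 lower member at day 3 (TYMS) was no longer called without day 3 replicate 2. The 3 higher members at day 4 (CCND1, GINS2 and TYMS) became 1 without day 3 replicate 2 or without day 4 replicate 2. The 2 lower members at day 6 (CDK4 and TYMS) became 4 without day 0 replicate 1 or day 4 replicate 1 and 1 without day 4 replicate 2.

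**Figure D1:**
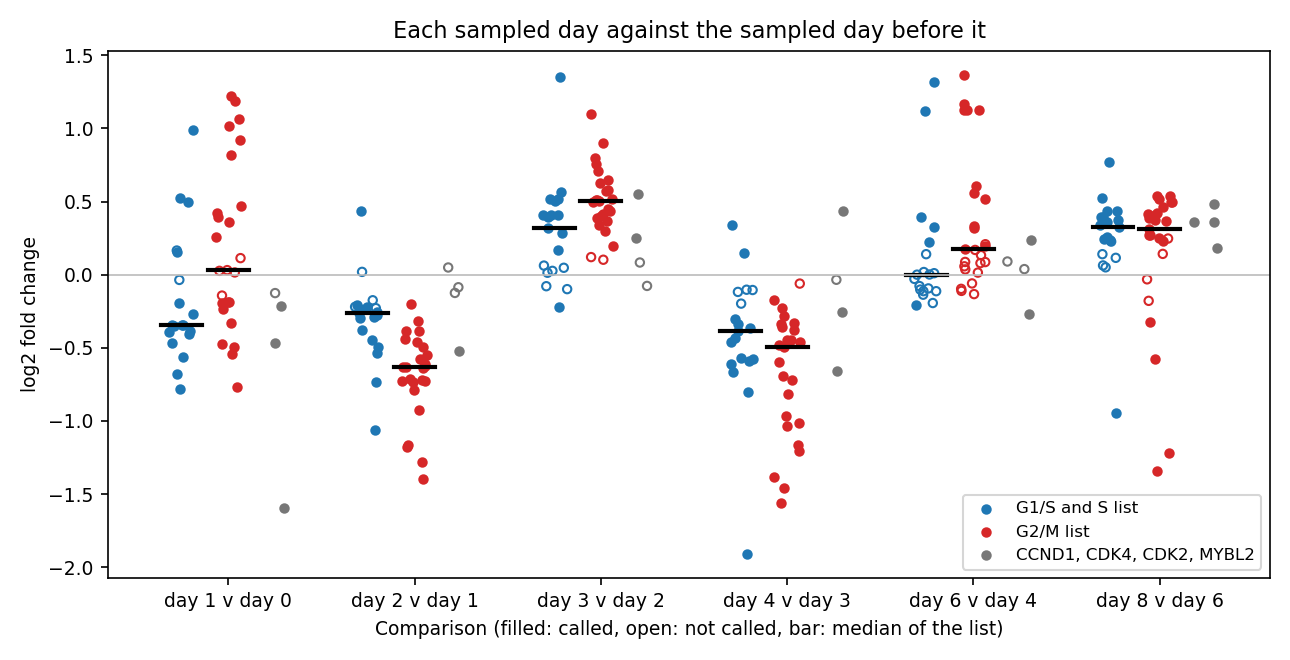
The log2 fold change (vertical axis) of each of the 48 genes at each sampled day against the sampled day before it, with filled points for genes called at an adjusted p under 0.05, open points for the others and a bar at the median of each list. The G2/M list has medians of -0.63 at day 2 and 0.50 at day 3, further from 0 than those of the G1/S and S list.

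Cyclin D1, which drives passage through G1, stepped with the majority of called members in only some steps. Against the sampled day before, its gene was called with them at days 1, 3 and 8 and against them at day 4. At days 2 and 6 it was not called. CCND1, which encodes cyclin D1, the partner of CDK4 that growth factors induce, had 432 and 435 CPM at day 0, 142 and 144 at day 1, 138 and 132 at day 2, and 160.4 and 161 at day 3. It had 223 and 210.4 CPM at day 4, 222 and 224 at day 6 and 294 and 277 at day 8. Both day 0 libraries lay above all others, days 1 to 3 were lowest, and day 8 lay between, without overlap. CCND1 fell at day 1 (log2 fold change -1.60 ± 0.0505 SE, edgeR adjusted p = 3.42e-18), and at day 8 against day 1 it rose (log2 fold change 0.99 ± 0.0504 SE, edgeR adjusted p = 1.11e-14). CDK4 had 139.7 and 134 CPM at day 0, 98.6 and 99.3 at day 1, 103 and 102 at day 2, and 97.5 and 96.6 at day 3. It was at 92.2 and 97.2 CPM at day 4, 77.4 and 79.5 at day 6 and 98.3 and 103 at day 8. This kinase fell at day 1 (log2 fold change -0.47 ± 0.0523 SE, edgeR adjusted p = 2.6e-08) and every later library stayed below both day 0 libraries. Both genes of the pair were thus lower at day 1, and only CCND1 among the 48 rose at both day 3 and day 4 against the day before.

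Among the regulators of the G1/S transition, 2 activating E2F factors ended on different sides of their day 0 level. E2F1 had 34.6 and 30.5 CPM at day 0, 25.8 and 25.5 at day 1, 20.2 and 22.6 at day 2, and 21.03 and 23.5 at day 3. There followed 13.8 and 16.2 CPM at day 4, 14.3 and 13.1 at day 6 and 13.2 and 15.3 at day 8. Days 4, 6 and 8 lay below days 1, 2 and 3, and the log2 fold change of E2F1 at day 8 against day 0 was -1.19 ± 0.102 (SE, edgeR adjusted p = 2.43e-10). E2F2 had 10.6 and 12.6 CPM at day 0, 10.04 and 9.25 at day 1, 6.37 and 5.2 at day 2, and 8.38 and 8.25 at day 3. Its later libraries had 4.65 and 4.85 CPM at day 4, 11.8 and 11.8 at day 6 and 20.3 and 20.1 at day 8. Both day 8 libraries were above all others and days 2 and 4 were below days 0, 1 and 3. E2F2 rose at day 6 against day 4 (log2 fold change 1.32 ± 0.132 SE, edgeR adjusted p = 1.27e-08) and at day 8 against day 6 (log2 fold change 0.77 ± 0.108 SE, edgeR adjusted p = 2.6e-06). Its rise at day 8 against day 0 was 0.80 ± 0.109 (SE, edgeR adjusted p = 5.69e-07), so that E2F1 was lower and E2F2 higher at day 8 than at day 0.

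Cyclin E, which activates CDK2, is encoded by CCNE1 and CCNE2. CCNE2 had 11.8 and 15.03 CPM at day 0, 26.99 and 26.2 at day 1, 13.2 and 12.2 at day 2, and 33.8 and 31.2 at day 3. Then came 8.1 and 9.15 CPM at day 4, 20.4 and 17.1 at day 6 and 9.97 and 9.56 at day 8. The libraries of days 1 and 3 stood above all others, and those of day 6 above days 0, 2, 4 and 8. CCNE2 was called in each step, with a log2 fold change of 0.99 ± 0.109 (SE, edgeR adjusted p = 2.21e-08) at day 1 and of -1.91 ± 0.114 (SE, edgeR adjusted p = 3.56e-12) at day 4. The other steps gave -1.06 at day 2, 1.35 at day 3, 1.12 at day 6 and -0.94 at day 8. CCNE1 had 13.7 and 16.4 CPM at day 0, 10.3 and 11.5 at day 1, 9.22 and 10.1 at day 2, and 12.7 and 12.9 at day 3. It had 9.77 and 9.2 CPM at day 4, 8.98 and 9.6 at day 6 and 10.7 and 9.81 at day 8. CCNE1 fell at day 1 (log2 fold change -0.46 ± 0.112 SE, edgeR adjusted p = 0.000822) while CCNE2 rose, rose at day 3 (log2 fold change 0.41 ± 0.116 SE, edgeR adjusted p = 0.00607) and was not called at days 6 and 8 against the sampled day before. The rise of CCNE1 at day 3 was 0.34 (edgeR adjusted p = 0.0738) without day 2 replicate 1. CCNE2 overlaps the gene INTS8 in the RefSeq annotation of assembly ARS1.2, and without a known strand setting reads of the 2 genes may not be told apart. Log2 fold changes of INTS8 were -0.60 at day 2, 0.50 at day 3, -0.365 at day 4, 0.29 at day 6 and -0.09 at day 8, each against the sampled day before.

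CDK2, the kinase that drives S phase, had 27.6 and 32.4 CPM at day 0, 27.03 and 27.96 at day 1, 26.8 and 23.6 at day 2, and 27.6 and 25.9 at day 3. It was at 20.7 and 23.9 CPM at day 4, 25.7 and 27.04 at day 6 and 35.3 and 38.4 at day 8. The day 8 libraries lay above those of days 1 to 6, and CDK2 rose at day 8 against day 6 (log2 fold change 0.48 ± 0.0907 SE, edgeR adjusted p = 0.000109). MYBL2 encodes B-MYB, which with the MuvB complex and FOXM1 switches on G2/M genes. MYBL2 had 164 and 139.8 CPM at day 0, 134 and 128 at day 1, 88.9 and 93.7 at day 2, and 131 and 136 at day 3. There followed 84.7 and 84.8 CPM at day 4, 91.5 and 88.9 at day 6 and 101 and 103 at day 8. MYBL2 fell at day 2 (log2 fold change -0.52 ± 0.0636 SE, edgeR adjusted p = 3.57e-07), rose at day 3 (log2 fold change 0.55 ± 0.0633 SE, edgeR adjusted p = 2.1e-07) and fell at day 4 (log2 fold change -0.66 ± 0.0635 SE, edgeR adjusted p = 9e-09), each against the day before. FOXM1 had 44.2 and 40.2 CPM at day 0, 30.1 and 30.7 at day 1, 22.6 and 26.1 at day 2, and 26.8 and 26.1 at day 3. Its later libraries had 17.01 and 15.1 CPM at day 4, 18.4 and 18.6 at day 6 and 24.9 and 24.7 at day 8. FOXM1 was highest at day 0 and lowest at days 4 and 6, without overlap with the other days, and its log2 fold change at day 4 against day 3 was -0.72 ± 0.0902 (SE, edgeR adjusted p = 4.48e-07). It rose at day 8 against day 6 (log2 fold change 0.42 ± 0.0894 SE, edgeR adjusted p = 0.000399), to a level that was still lower than at day 0 (log2 fold change -0.77 ± 0.0824 SE, edgeR adjusted p = 1.32e-08).

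**Figure D2:**
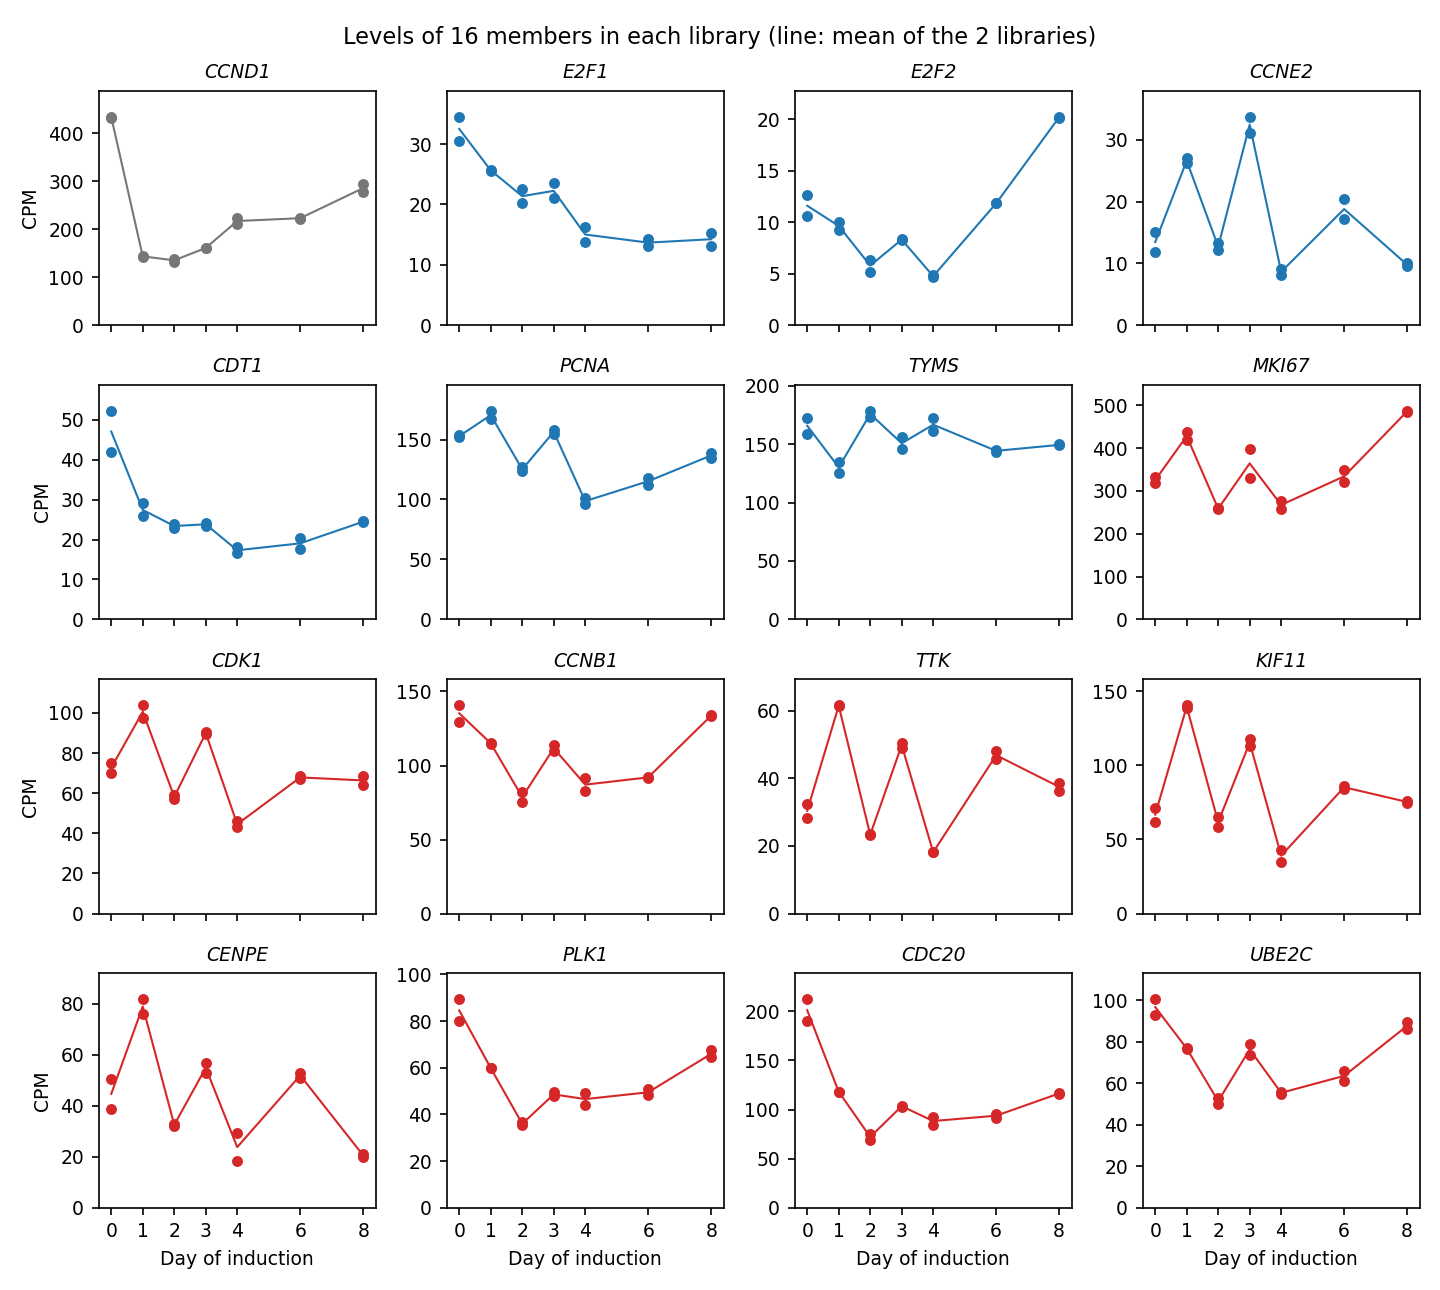
Levels in CPM (vertical axis, from 0) of 16 of the genes in each library against the day of induction (horizontal axis), with a line through the mean of the 2 libraries of a day, G1/S and S genes in blue, G2/M genes in red and CCND1 in grey. TTK, KIF11, CENPE and CCNE2 rise and fall between sampled days, whereas CDT1, CDC20 and PLK1 have their highest libraries at day 0 and E2F2 and MKI67 at day 8.

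The licensing and helicase genes load the MCM ring onto origins of replication and fire it. Of the 10 genes, 1 was higher and 7 lower at day 1 and 3 higher and 7 lower at day 8, each against day 0. At day 1, 34.8% of all genes tested were called higher and 34.5% lower, and at day 8, 36.0% of all genes tested were called higher and 35.0% lower. The 3 of 10 higher at day 8 stood near that day's share. The widest range over days in this group was that of CDT1, the loading factor that with CDC6 places MCM2 to MCM7 on DNA. CDT1 had 52.3 and 41.9 CPM at day 0, 29.1 and 25.8 at day 1, 23.02 and 23.8 at day 2, and 24.2 and 23.5 at day 3. Then came 18.01 and 16.6 CPM at day 4, 17.7 and 20.4 at day 6 and 24.6 and 24.4 at day 8. Both day 0 libraries exceeded all others, and the log2 fold change of CDT1 at day 1 against day 0 was -0.78 ± 0.0937 (SE, edgeR adjusted p = 9.02e-08). CDC45, which activates the loaded helicase, had 31.9 and 28.6 CPM at day 0, 24.8 and 21.01 at day 1, 19.5 and 19.8 at day 2, and 19.3 and 20.3 at day 3. It had 13.4 and 17.9 CPM at day 4, 13.7 and 13.7 at day 6 and 17.1 and 18.5 at day 8. CDC45 was highest at day 0, without overlap, and the log2 fold change at day 8 against day 0 was -0.77 ± 0.106 (SE, edgeR adjusted p = 8.14e-07). MCM7 had 312 and 289 CPM at day 0, 205 and 202 at day 1, 176 and 173 at day 2, and 162 and 169 at day 3. It was at 147 and 160.4 CPM at day 4, 158 and 150.2 at day 6 and 194 and 210.1 at day 8. For MCM7, a subunit of the ring, the day 0 libraries were again above all others (log2 fold change at day 1 -0.56 ± 0.0557 SE, edgeR adjusted p = 3.8e-09), and it rose at day 8 against day 6 (log2 fold change 0.39 ± 0.0568 SE, edgeR adjusted p = 4.13e-06). Not all subunits of the ring changed alike at day 1: the log2 fold change of MCM6 was 0.49 ± 0.0613 (SE, edgeR adjusted p = 1.5e-07), whereas MCM2, MCM4, MCM5 and MCM7 fell by 0.34 to 0.56 and MCM3 was not called (-0.04). At day 4 against day 3 GINS2, a helicase cofactor, was called higher (log2 fold change 0.34 ± 0.105 SE, edgeR adjusted p = 0.0098), while 5 genes of the group were lower. It was not called without day 3 replicate 2, at 0.27 (edgeR adjusted p = 0.101), or without day 4 replicate 2, at 0.28 (edgeR adjusted p = 0.0929). GINS2 overlaps GSE1 and MCM7 overlaps AP4M1 in RefSeq's ARS1.2, and GINS2 had fractional counts in 14 libraries and MCM7 in 10, so reads may have been shared. At day 8 against day 6, 8 of the 10 were higher and 0 lower (DESeq2 and an unadjusted p under 0.05 also gave 0 lower), the group's largest count of higher genes in the 6 steps. Of all genes tested, 25.6% were called higher and 23.2% lower in that step. At day 4 against day 3 these shares were 28.8% and 21.6%.

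Genes of DNA synthesis supply the sliding clamp (PCNA), the priming polymerase (POLA1), ribonucleotide reductase (RRM1 and RRM2) and thymidylate (TYMS). PCNA had 154 and 152 CPM at day 0, 167 and 174 at day 1, 127 and 124 at day 2, and 158 and 155 at day 3. There followed 96.3 and 101 CPM at day 4, 118 and 112 at day 6 and 139 and 135 at day 8. The libraries of days 0, 1 and 3 lay above those of days 2 and 4, and PCNA rose at day 3 (log2 fold change 0.32 ± 0.0512 SE, edgeR adjusted p = 1.8e-05) and fell at day 4 (log2 fold change -0.67 ± 0.0518 SE, edgeR adjusted p = 2.91e-10), each against the day before. POLA1 had 32.2 and 39.8 CPM at day 0, 50.96 and 52.6 at day 1, 41.6 and 43.2 at day 2, and 56.2 and 56.2 at day 3. Its later libraries had 38.95 and 35.8 CPM at day 4, 49.6 and 48.4 at day 6 and 56.9 and 58.4 at day 8. POLA1 was lowest at day 0 by its means and rose at day 1 (log2 fold change 0.53 ± 0.0782 SE, edgeR adjusted p = 2.38e-06), against the direction of RRM1, RRM2 and TYMS. At day 8 it was higher than at day 0 (log2 fold change 0.68 ± 0.0776 SE, edgeR adjusted p = 3.44e-08). POLA1 overlaps DIAPH2 in RefSeq's ARS1.2, and without a known strand setting their reads may not be told apart, though POLA1 had fractional counts in 0 libraries. DIAPH2 had log2 fold changes of -0.13 at day 2, 0.56 at day 3 and -0.85 at day 4. These were followed by 0.83 at day 6 and -0.68 at day 8, all against the sampled day before. RRM2 had 321 and 356 CPM at day 0, 304 and 288 at day 1, 232 and 224 at day 2, and 337 and 336 at day 3. Then came 222 and 229 CPM at day 4, 214 and 206 at day 6 and 303 and 300.3 at day 8. RRM2 followed the majority, with log2 fold changes of 0.56 ± 0.0529 (SE, edgeR adjusted p = 9.05e-09) at day 3 and -0.58 ± 0.0529 (SE, edgeR adjusted p = 3.97e-09) at day 4. TYMS ran against it, with levels of 173 and 179 CPM at day 2 against 125 and 135 CPM at day 1 and a log2 fold change of 0.43 ± 0.0569 (SE, edgeR adjusted p = 9.83e-07), the only one of the 48 called higher in that step. TYMS overlaps ENOSF1 in RefSeq's ARS1.2, it had fractional counts in 14 libraries, and the log2 fold change of ENOSF1 at day 2 against day 1 was 0.26.

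**Figure D3:**
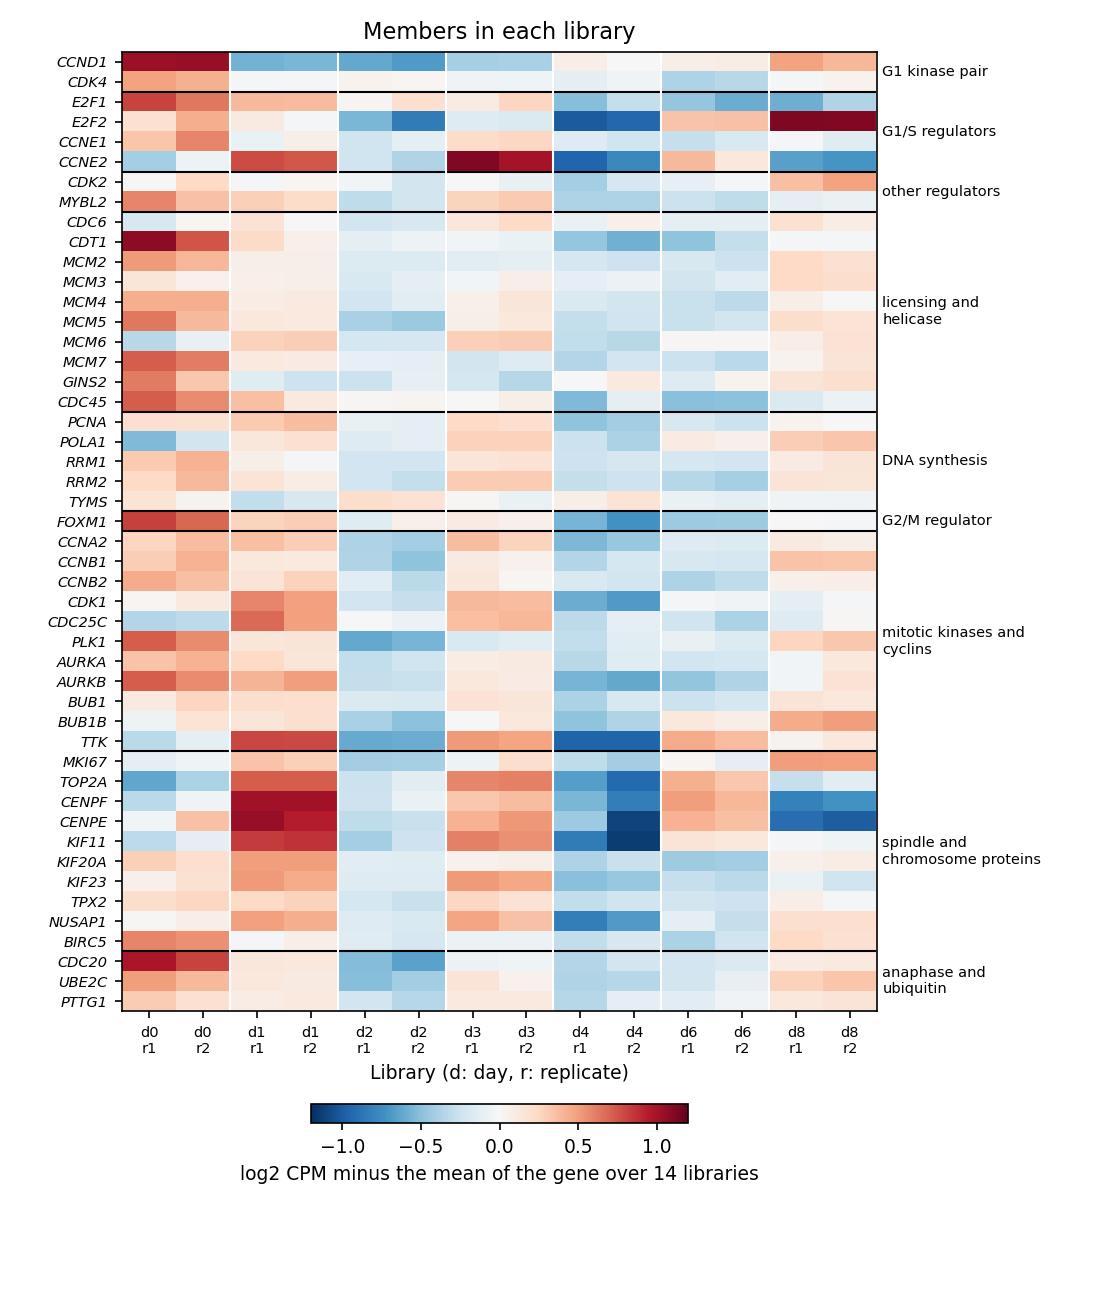
Each row is 1 of the 48 genes, ordered by role, and each column is 1 library in order of day, with the colour giving log2 CPM minus the mean of the gene over the 14 libraries (red above, blue below). The libraries of days 2 and 4 are blue for most genes, and TTK, TOP2A, CENPF, CENPE and KIF11 are red at days 1, 3 and 6.

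Mitotic kinases, cyclins and the phosphatase CDC25C split at day 1 against day 0, with 3 higher and 5 lower of 11, and were then called in 1 direction per step until day 4. Of the 11 genes, 0 were higher and 11 lower at day 2, 11 higher and 0 lower at day 3 and 0 higher and 10 lower at day 4, each against the day before. From day 1 to day 4, in order, 34.8%, 25.3%, 21.2% and 28.8% of all genes tested were called higher. Called lower were 34.5%, 23.1%, 24.1% and 21.6%. TTK, the kinase that starts the spindle checkpoint, had 28.4 and 32.5 CPM at day 0, 61.7 and 61.3 at day 1, 23.2 and 23.4 at day 2, and 50.6 and 49.1 at day 3. It had 18.2 and 18.1 CPM at day 4, 48.1 and 45.6 at day 6 and 36.4 and 38.6 at day 8. All libraries of days 1, 3 and 6 lay above all libraries of days 0, 2, 4 and 8. Its log2 fold changes were -1.40 ± 0.0745 (SE, edgeR adjusted p = 3.72e-13) at day 2, 1.10 at day 3, -1.46 at day 4 and 1.37 ± 0.0781 (SE, edgeR adjusted p = 9.01e-13) at day 6, each against the sampled day before. CDK1 had 70.2 and 75.2 CPM at day 0, 104 and 97.3 at day 1, 59.2 and 57.1 at day 2, and 90.5 and 89.4 at day 3. It was at 45.9 and 43.1 CPM at day 4, 68.6 and 67.2 at day 6 and 64.3 and 68.4 at day 8. CDK1, the kinase that drives entry into mitosis, was highest at days 1 and 3 and fell at day 4 (log2 fold change -1.01 ± 0.0622 SE, edgeR adjusted p = 5.97e-12). CCNB1 had 129.7 and 141 CPM at day 0, 115 and 115 at day 1, 81.98 and 75.4 at day 2, and 114 and 109.5 at day 3. There followed 82.7 and 91.4 CPM at day 4, 92.1 and 91.9 at day 6 and 134 and 133 at day 8. By CPM, its partner cyclin B1 was highest at days 0 and 8 instead. In length-scaled levels (TPM) it was not, with 154 ± 14.6 at day 0, 162 ± 1.26 at day 1 and 161 ± 1.86 at day 8 (SD, n = 2). CCNB1 rose at day 8 against day 6 (log2 fold change 0.54 ± 0.0593 SE, edgeR adjusted p = 7.74e-08), while CDK1 was not called in that step (-0.03).

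PLK1, the polo-like kinase of mitosis, had 89.3 and 79.8 CPM at day 0, 59.8 and 59.99 at day 1, 35.3 and 36.8 at day 2, and 47.7 and 49.5 at day 3. Its later libraries had 43.98 and 49.2 CPM at day 4, 50.7 and 48.3 at day 6 and 64.5 and 67.4 at day 8. Both day 0 libraries of PLK1 lay above all others, and day 2 was lowest. AURKB, the Aurora kinase of the chromosomal passenger complex, had 43.9 and 39.1 CPM at day 0, 35.04 and 37.3 at day 1, 21.7 and 21.98 at day 2, and 28.8 and 28.2 at day 3. Then came 17.97 and 17.2 CPM at day 4, 19.02 and 20.6 at day 6 and 25.9 and 29.8 at day 8. Both day 0 libraries of AURKB were likewise above all others, and neither PLK1 nor AURKB was called higher at day 1, whereas TTK was. PLK1 fell at day 1 against day 0 (log2 fold change -0.50 ± 0.0668 SE, edgeR adjusted p = 5.04e-07) and again at day 2 against day 1 (log2 fold change -0.73 ± 0.0719 SE, edgeR adjusted p = 1.17e-08). At day 4 against day 3 it was the 1 gene of the group that was not called (-0.06). AURKB fell at day 2 (log2 fold change -0.73 ± 0.086 SE, edgeR adjusted p = 2.04e-07) and at day 4 (log2 fold change -0.69 ± 0.0892 SE, edgeR adjusted p = 6.53e-07), and rose at day 8 against day 6 (log2 fold change 0.49 ± 0.0884 SE, edgeR adjusted p = 6e-05). CDC25C, which activates CDK1, had its highest level at day 1 and rose there against day 0 (log2 fold change 0.92 ± 0.109 SE, edgeR adjusted p = 6.68e-08), along with TTK and CDK1. In the same comparison CCNB1, CCNB2, PLK1, AURKA and AURKB were called lower. The calls of CCNB1, CCNB2, AURKA and AURKB at day 1 were lost, with log2 fold changes of -0.01, 0.05, -0.01 and -0.08, once a trend of fold change with gene length was removed. AURKA was also not called without day 0 replicate 2 or day 1 replicate 2, nor AURKB without day 0 replicate 1 or day 1 replicate 1.

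Spindle and chromosome proteins stepped in the same directions as the kinases from day 2 to day 4. Of the 10 genes, 8 were higher and 1 lower at day 1 against day 0, 0 higher and 10 lower at day 2 against day 1, 9 higher and 0 lower at day 3 against day 2 and 0 higher and 10 lower at day 4 against day 3. The 8 at day 1 include MKI67, which was called lower there once the length trend was removed. In these steps, in order, 34.8%, 25.3%, 21.2% and 28.8% of all genes tested were called higher. Called lower were 34.5%, 23.1%, 24.1% and 21.6%. CENPE, the kinetochore motor that aligns chromosomes, had 38.7 and 50.6 CPM at day 0, 81.7 and 76.1 at day 1, 32.1 and 32.9 at day 2, and 52.99 and 56.7 at day 3. It had 29.3 and 18.3 CPM at day 4, 52.8 and 50.97 at day 6 and 21.1 and 19.9 at day 8. Both day 1 libraries of CENPE exceeded all others. CENPF, a large kinetochore protein, had 63.8 and 76.9 CPM at day 0, 161 and 160.3 at day 1, 67.2 and 75.8 at day 2, and 100.2 and 104 at day 3. It was at 54.7 and 45.03 CPM at day 4, 113 and 105 at day 6 and 45.4 and 48.3 at day 8. CENPE and CENPF were highest at day 1 and lowest at day 8 by their means, and all CENPF libraries of days 1, 3 and 6 lay above those of days 0, 2, 4 and 8. At day 8 against day 6 CENPE fell (log2 fold change -1.34 ± 0.132 SE, edgeR adjusted p = 1.46e-08) and so did CENPF (log2 fold change -1.22 ± 0.0845 SE, edgeR adjusted p = 5.39e-11), against the rise of most members in that step. KIF11, the motor that pushes the spindle poles apart, had 61.9 and 71.5 CPM at day 0, 138 and 140.5 at day 1, 58.1 and 65.2 at day 2, and 117 and 113 at day 3. There followed 43.02 and 35.04 CPM at day 4, 86.1 and 84.1 at day 6 and 75.9 and 74.5 at day 8. KIF11 was highest at days 1 and 3, its day 6 libraries lay above days 0, 2, 4 and 8, and its log2 fold change at day 4 against day 3 was -1.56 ± 0.0792 (SE, edgeR adjusted p = 2.94e-13).

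MKI67, which encodes the proliferation antigen Ki-67, had 318 and 332 CPM at day 0, 437 and 419.7 at day 1, 257 and 260.1 at day 2, and 330.5 and 398 at day 3. Its later libraries had 278 and 257 CPM at day 4, 348 and 319.9 at day 6 and 487 and 485 at day 8. By CPM, MKI67 was highest at day 8, above all other libraries. In length-scaled levels (TPM) it averaged 83.3 ± 0.876 at day 8 and 85.9 ± 2.87 at day 1 (SD, n = 2). MKI67 rose at day 8 against day 6 (log2 fold change 0.54 ± 0.0649 SE, edgeR adjusted p = 2.83e-07), in a step in which CENPE, CENPF and TOP2A were called lower. With the length trend removed, its log2 fold change at day 8 against day 0 was 0.04 (edgeR adjusted p = 0.499) in place of 0.58. The same removal turned MKI67 from higher to lower at day 1, where it gave -0.34 (edgeR adjusted p = 6.05e-07) in place of 0.40, and at day 3, where it gave -0.49 (edgeR adjusted p = 1.01e-09) in place of 0.16, both against day 0. TOP2A, the topoisomerase that untangles chromosomes, rose at day 1 (log2 fold change 1.22 ± 0.0763 SE, edgeR adjusted p = 1.06e-12) and fell at day 4 (log2 fold change -1.38 ± 0.0772 SE, edgeR adjusted p = 1.27e-12), each against the day before. NUSAP1, a microtubule bundler, fell at day 4 against day 3 (log2 fold change -1.17 ± 0.069 SE, edgeR adjusted p = 3.37e-12). BIRC5 (survivin) was the 1 gene of the group called lower at day 1 (log2 fold change -0.54 ± 0.0634 SE, edgeR adjusted p = 6e-08).

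Regulators of anaphase had their highest mean CPM at day 0. In length-scaled levels (TPM) this held clearly only for CDC20, with 211 ± 8.76 at day 0 and 154 ± 1.28 at day 1 (SD, n = 2). UBE2C averaged 211 ± 3.59 TPM at day 0 and 209 ± 2.74 at day 1, and PTTG1 72.5 ± 1.78 and 81.7 ± 0.814. PTTG1 was not called at day 1 against day 0 (log2 fold change -0.14, edgeR adjusted p = 0.128). CDC20, which activates the anaphase-promoting complex, had 212 and 189.7 CPM at day 0, 118 and 118 at day 1, 75.1 and 69.1 at day 2, and 103 and 104 at day 3. Then came 84.6 and 92.0 CPM at day 4, 91.8 and 95.6 at day 6 and 116 and 117 at day 8. Both day 0 libraries of CDC20 exceeded all others, and day 2 was lowest. UBE2C, the ubiquitin-conjugating enzyme of that complex, had 100.5 and 93.1 CPM at day 0, 77.3 and 76.4 at day 1, 49.8 and 53.05 at day 2, and 79.1 and 73.6 at day 3. It had 55.05 and 55.9 CPM at day 4, 61.1 and 66.2 at day 6 and 86.1 and 89.4 at day 8. The day 0 libraries of UBE2C were above all others too. CDC20 fell at day 1 against day 0 (log2 fold change -0.77 ± 0.0593 SE, edgeR adjusted p = 4.72e-11) and at day 2 against day 1 (log2 fold change -0.71 ± 0.0625 SE, edgeR adjusted p = 2.05e-09), and at day 8 it was still lower than at day 0 (log2 fold change -0.79 ± 0.0593 SE, edgeR adjusted p = 2.07e-11). UBE2C fell at day 2 (log2 fold change -0.58 ± 0.0643 SE, edgeR adjusted p = 8.07e-08) and rose at day 3 (log2 fold change 0.57 ± 0.064 SE, edgeR adjusted p = 1.42e-07) and at day 8 (log2 fold change 0.46 ± 0.0622 SE, edgeR adjusted p = 1.43e-06), each against the sampled day before. PTTG1, which encodes securin, the inhibitor of separase, had 32.8 and 30.1 CPM at day 0, 28.1 and 28.8 at day 1, 22.7 and 20.9 at day 2, and 28.8 and 28.7 at day 3. It was at 20.9 and 24.5 CPM at day 4, 24.1 and 25.8 at day 6 and 28.97 and 29.6 at day 8. PTTG1 varied less, with both libraries of days 2 and 4 below those of day 0 and a log2 fold change at day 2 against day 1 of -0.39 ± 0.0868 (SE, edgeR adjusted p = 0.000744).

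Levels were compared between genes only per length, as TPM (length-scaled levels with the same sum in each library) from the length column of the deposited table. At day 8 the highest members were UBE2C with 203 ± 3.97 TPM, TYMS with 192 ± 0.63, RRM2 with 187 ± 2.7 and CCNB1 with 161 ± 1.86 (SD, n = 2), each further from the next than an SD. At day 0 they were CDC20 with 211 ± 8.76 TPM, UBE2C with 211 ± 3.59, TYMS with 200.0 ± 4.18 and RRM2 with 198 ± 22.2, whose spread reached the other 3. The lowest were CENPE with 4.68 ± 0.22 TPM and CCNE2 with 6.83 ± 0.255 at day 8, and E2F2 with 4.9 ± 0.786 and CDC25C with 7.32 ± 0.389 at day 0.

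The study samples allow S-phase and G2/M genes to be set side by side by day. Relative to the median of all genes tested, the median log2 fold change at day 1 against day 0 was -0.35 for the G1/S and S list (4 higher and 13 lower of 19) and 0.02 for the G2/M list (11 higher and 9 lower of 25). At day 2 against day 1 the values were -0.27 for S (1 higher and 14 lower) and -0.64 for G2/M (0 higher and 25 lower). At day 3 against day 2 they were 0.33 for S (12 higher and 1 lower) and 0.51 for G2/M (23 higher and 0 lower). The median of the G2/M list was thus above that of the S list at day 1, further down at day 2 and further up at day 3. At day 4 against day 3 they were -0.46 for S (2 higher and 13 lower) and -0.57 for G2/M (0 higher and 24 lower), where the second value was -0.65 without day 3 replicate 1. At day 6 against day 4 they were 0.08 for S (5 higher and 1 lower) and 0.26 for G2/M (12 higher and 0 lower). At day 8 against day 6 they were 0.33 for S (13 higher and 1 lower) and 0.31 for G2/M (17 higher and 4 lower). In these steps, in order, 34.8%, 25.3%, 21.2%, 28.8%, 23.0% and 25.6% of all genes tested were called higher. Called lower were 34.5%, 23.1%, 24.1%, 21.6%, 31.2% and 23.2%. Among the counts, the 9 lower of 25 at day 1 and the 5 higher of 19 at day 6 stood near that share. Where edgeR called 0 genes of the G2/M list in a direction, DESeq2 called 0 too, and an unadjusted p under 0.05 gave 1 gene, the kinesin KIF20A, lower at day 6 against day 4, and 0 in the other such steps. Of the 6 steps, the last was the one in which the medians of the 2 lists differed least.

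In single libraries the same contrast showed as the mean log2 CPM of the S list minus that of the G2/M list. The difference was -0.12 at day 0, -0.47 at day 1, -0.09 at day 2, -0.31 at day 3, -0.04 at day 4, -0.28 at day 6 and -0.17 at day 8, with a pooled SD within days of 0.0225. Libraries of days 1, 3 and 6 lay between -0.485 and -0.276 and those of days 0, 2, 4 and 8 between -0.180 and -0.013, without overlap. The S list itself had means of 6.09, 5.93, 5.62, 5.91, 5.49, 5.62 and 5.87 log2 CPM in order of day, and the G2/M list 6.21, 6.40, 5.71, 6.22, 5.53, 5.90 and 6.04. These means weigh each gene equally and are not levels per length, so the sign of the difference says nothing of which phase was more abundant. Only its change between days can be read.

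**Figure D4:**
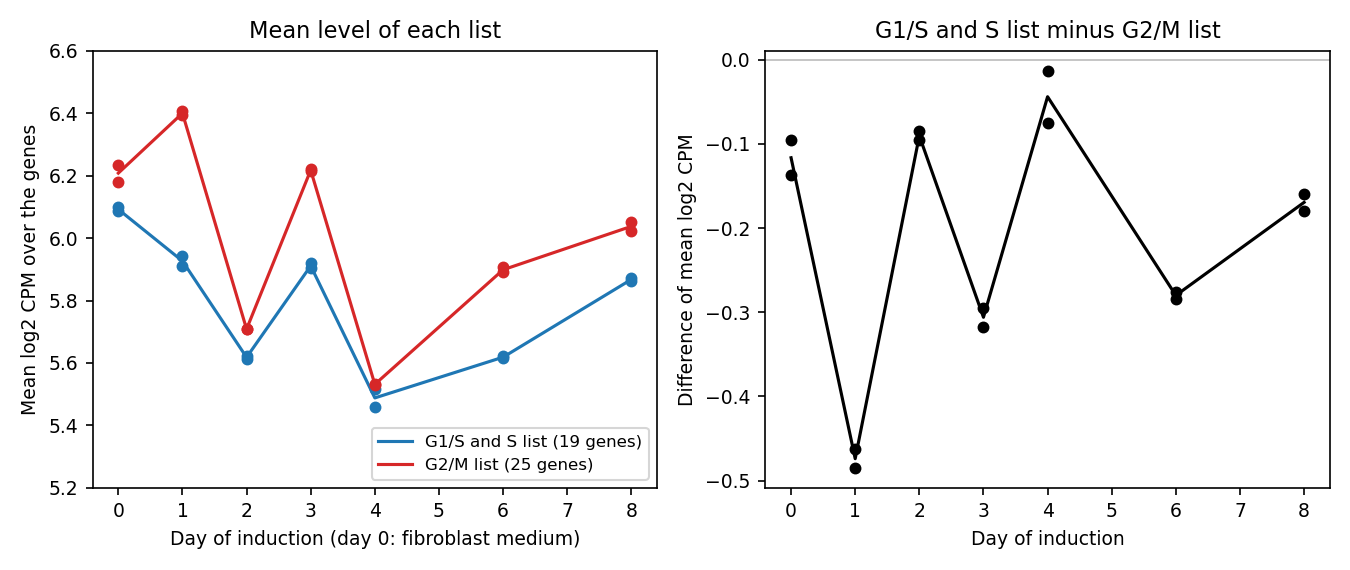
Mean log2 CPM over the 19 genes of the G1/S and S list (blue) and the 25 genes of the G2/M list (red) in each library against the day of induction (left), and their difference (right), with lines through the mean of the 2 libraries of a day. The G2/M list is at 6.40 at day 1 and 5.71 at day 2, and the difference is lowest at days 1, 3 and 6.

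Technical measures moved with the same days, the TMM scaling factors in every library and the mean gene length only by its day means. TMM scaling factors were 1.027 to 1.059 in the libraries of days 1, 3 and 6 and 0.952 to 0.980 in those of days 0, 2, 4 and 8. The mean length of the gene behind a count was 3218 bases at day 0, 3799 at day 1, 3648 at day 2, 3698 at day 3, 3662 at day 4, 3767 at day 6 and 3520 at day 8. Single libraries overlapped in length, with 3658 bases in day 3 replicate 1 and 3691 bases in day 4 replicate 1. Within the 25 genes of the G2/M list, fold change went with gene length. The Spearman correlation between them was 0.616 at day 1 against day 0, -0.634 at day 2 against day 1, 0.349 at day 3 against day 2. It was -0.452 at day 4 against day 3, 0.527 at day 6 against day 4 and -0.355 at day 8 against day 6. Across all 15712 genes the same correlations were 0.248, -0.148, 0.128, -0.110, 0.210 and -0.196, and across the 19 genes of the S list 0.228, -0.104, 0.218, -0.035, 0.284 and 0.140. These are descriptions across genes of the same libraries, and genes are not independent replicates. With the trend over all genes removed from each library, counts of members at day 2 against day 1 were 1 higher and 41 lower, at day 3 against day 2 37 higher and 1 lower, and at day 4 against day 3 2 higher and 39 lower. Relative medians were then -0.244 for S and -0.632 for G2/M at day 2, 0.345 for S and 0.502 for G2/M at day 3, and -0.448 for S and -0.632 for G2/M at day 4. Beyond this removal, the part of these measures in the results was not tested.

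The genes that moved furthest in 1 step tended to be those that moved furthest in another step that shares no library with it. Across the 48 genes the log2 fold changes of day 2 against day 1 and of day 4 against day 3 had a Pearson correlation of 0.806 (Spearman 0.738), against 0.400 (0.532) across all genes tested. Between day 3 against day 2 and day 6 against day 4 it was 0.727 (0.707), against 0.259 (0.387) across all genes, and between day 1 against day 0 and day 3 against day 2 it was 0.654 (0.620), against 0.163 (0.272). For day 2 against day 1 and day 8 against day 6 it was 0.571 (0.218), against 0.109 (0.216). TTK, KIF11, CENPE, CENPF, TOP2A and CCNE2 had log2 fold changes of -0.92 or lower at both day 2 and day 4 against the day before.

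**Figure D5:**
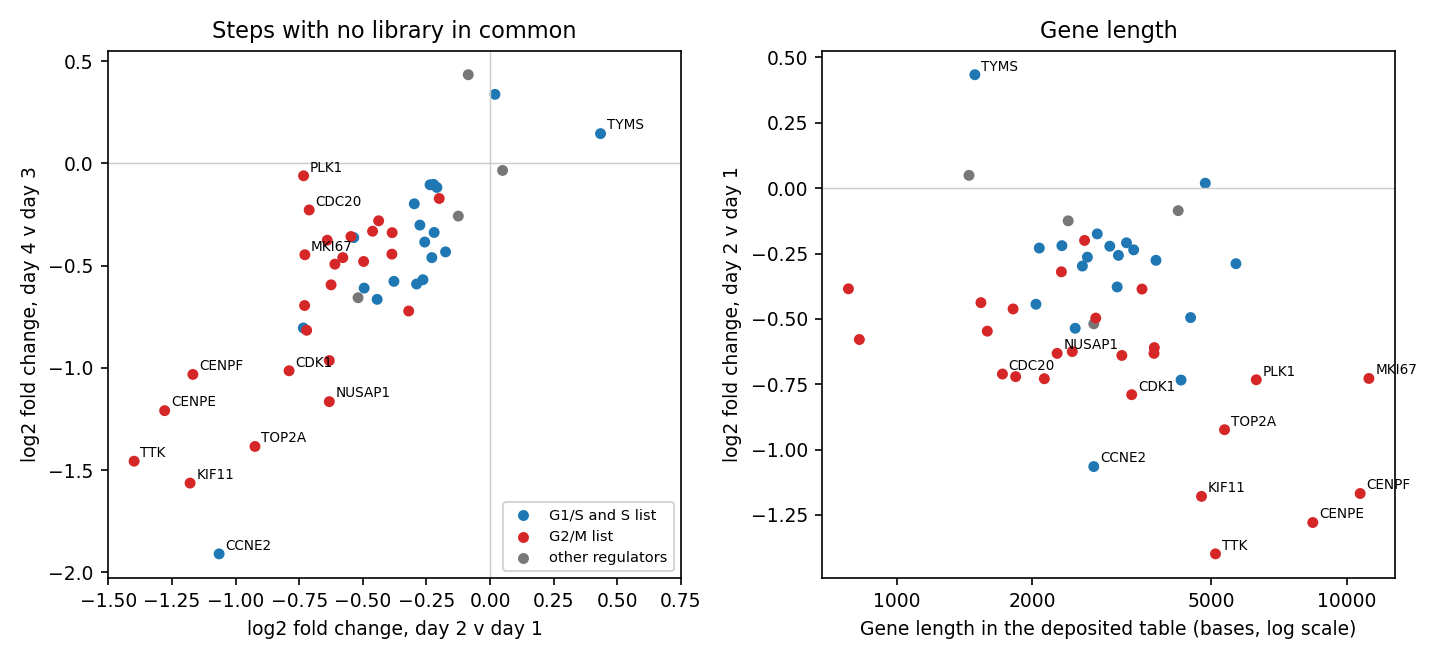
Left, the log2 fold change of each of the 48 genes at day 4 against day 3 (vertical axis) and at day 2 against day 1 (horizontal axis), comparisons with no library in common. Right, the log2 fold change at day 2 against day 1 against gene length in bases on a log scale, where TTK, CENPE, KIF11 and CENPF are among the lowest points and TYMS is the highest.

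Each induced day was also set against the fibroblasts of day 0, in 6 comparisons that share the day 0 libraries. At day 2, 3 were higher and 39 lower of the 48, where 32.9% of all genes tested were called higher and 31.6% lower, and the 3 became 1 without day 0 replicate 1. At day 3, 14 were higher and 24 lower, where 35.9% of all genes tested were called higher and 35.0% lower. At day 4, 0 were higher and 43 lower, where 33.9% of all genes tested were called higher and 33.5% lower, and 1 was higher without day 0 replicate 2. No member was higher at day 4 by edgeR at an unadjusted p under 0.05 either (0 of 48), and DESeq2 called 0 higher and 44 lower. Day 4 was the lowest point by this count, with 15 of the 19 S genes and 24 of the 25 G2/M genes lower. At day 6, 7 were higher and 33 lower, where 37.9% of all genes tested were called higher and 37.5% lower, and 3 rather than 7 were higher with the length trend removed. At day 8, 13 were higher and 31 lower, where 36.0% of all genes tested were called higher and 35.0% lower. Of these counts, the 13 depended on single libraries: 7 were higher without day 0 replicate 1, 7 without day 8 replicate 2, and 8 when only the 2 days compared were fitted. Relative medians at day 8 against day 0 were -0.26 for S (5 higher and 14 lower) and -0.19 for G2/M (7 higher and 14 lower).

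Within R induction medium, day 8 against day 1 gave 12 higher and 20 lower of the 48, where 31.8% of all genes tested were called higher and 35.0% lower. The S list had 5 higher and 5 lower with a relative median of 0.07, and the G2/M list 5 higher and 14 lower with -0.20. The 20 lower of 48 stood near the share of all genes called lower, and the 14 lower of 25 in the G2/M list above it. CENPE had 20.5 CPM at day 8 and 78.9 CPM at day 1 by its means (log2 fold change -1.94 ± 0.129 SE, edgeR adjusted p = 2.04e-12) and CENPF was lower (log2 fold change -1.78 ± 0.0836 SE, edgeR adjusted p = 2.68e-15), while E2F2 went the other way (log2 fold change 1.07 ± 0.111 SE, edgeR adjusted p = 7.82e-09).

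Other genes of the pathway that are in neither list were counted in the same steps. Of 35 other G2/M genes, among them ANLN, ASPM, NDC80 and PRC1, 21 were higher and 7 lower at day 1 against day 0, 1 higher and 31 lower at day 2 against day 1 and 30 higher and 1 lower at day 3 against day 2. In the later steps these were 0 higher and 33 lower at day 4 against day 3, 22 higher and 3 lower at day 6 against day 4 and 22 higher and 10 lower at day 8 against day 6. Of 26 other S-phase genes, 10 were higher and 10 lower, 1 higher and 19 lower, 14 higher and 1 lower, 1 higher and 21 lower, 12 higher and 2 lower and 18 higher and 4 lower in the same 6 steps. Of all genes tested, 34.8%, 25.3%, 21.2%, 28.8%, 23.0% and 25.6% were called higher in these steps, in order. Called lower were 34.5%, 23.1%, 24.1%, 21.6%, 31.2% and 23.2% of them. The 10 higher and 10 lower of 26 at day 1 stood near that step's share. HJURP, which deposits centromeric histone, rose at day 8 against day 0 (log2 fold change 1.39 ± 0.0568 SE, edgeR adjusted p = 1.34e-16), and CDC25B, a phosphatase that activates CDK1, fell (log2 fold change -0.89 ± 0.0608 SE, edgeR adjusted p = 3.43e-12). GINS4, a partner of GINS2, rose (log2 fold change 1.18 ± 0.1 SE, edgeR adjusted p = 1.91e-10) and DBF4, the activator of the CDC7 kinase, fell (log2 fold change -0.75 ± 0.0841 SE, edgeR adjusted p = 2.87e-08).

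The brakes and partners of the E2F factors, the checkpoint genes and the anaphase-promoting complex were counted at day 8 against day 0, where 36.0% of all genes tested were called higher and 35.0% lower. Of the 10 CDK inhibitors and RB family genes measured, 6 were higher and 4 lower, the second near the share of all genes called lower. The E2F-binding RB relative RBL1 (p107) was higher (log2 fold change 1.05 ± 0.0982 SE, edgeR adjusted p = 1.18e-09) and the inhibitor CDKN1C (p57) was lower (log2 fold change -2.54 ± 0.27 SE, edgeR adjusted p = 1.1e-08). RBL1 averaged 22.2 CPM at day 0, 48.2 at day 1, 34.8 at day 2, 47.0 at day 3, 24.0 at day 4, 39.8 at day 6 and 46.0 at day 8. Of 13 DREAM, MuvB and E2F partner genes, 3 were higher and 6 lower. The repressor E2F7 was higher (log2 fold change 1.23 ± 0.142 SE, edgeR adjusted p = 4e-08) and the MuvB subunit LIN37 was lower (log2 fold change -0.88 ± 0.133 SE, edgeR adjusted p = 2.71e-06). Of 6 genes of the other D cyclins, CDK6 and the CDK7 module, 3 were higher and 3 lower. The other D cyclins moved apart: CCND2 averaged 831 ± 8.1 CPM at day 8 and 202 ± 1.03 CPM at day 0 (SD, n = 2; log2 fold change 2.04 ± 0.0452 SE, edgeR adjusted p = 6.71e-22), and CCND3 28.2 ± 1.84 CPM at day 8 and 109.5 ± 6.71 CPM at day 0 (log2 fold change -1.95 ± 0.0659 SE, edgeR adjusted p = 2.66e-18). With CCND1 lower (log2 fold change -0.60 ± 0.0488 SE, edgeR adjusted p = 8.13e-11), 2 of the 3 D cyclins were lower and 1 higher at day 8 than at day 0.

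Of the 7 checkpoint kinases and phosphatases, 6 were higher and 1 lower at day 8 against day 0. The DNA damage kinase CHEK2 was higher (log2 fold change 1.05 ± 0.0806 SE, edgeR adjusted p = 3.09e-11) and ATR was lower (log2 fold change -0.41 ± 0.145 SE, edgeR adjusted p = 0.0158). ATR averaged 11.04 CPM at day 0, 28.7 at day 1, 12.0 at day 2, 21.5 at day 3, 9.44 at day 4, 19.9 at day 6 and 8.35 at day 8, so that its means of days 1, 3 and 6 exceeded those of the other days, as did those of TTK and CENPE. Of the 14 genes of the anaphase-promoting complex and its regulators, 5 were higher and 3 lower, the first near the share of all genes called higher. The subunit ANAPC5 was higher (log2 fold change 0.87 ± 0.0776 SE, edgeR adjusted p = 5.19e-10) and the ubiquitin-conjugating enzyme UBE2S, which acts with UBE2C, was lower (log2 fold change -1.48 ± 0.0789 SE, edgeR adjusted p = 2.51e-14).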

How the data were processed

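Goat RNA from 14 libraries (7 days, 2 libraries a day, grouped by the day and number in their titles) was depleted of ribosomal RNA with a Ribo-Zero Gold kit and made into TruSeq libraries, per the labels' protocols. The authors deposited 1 expected count per gene and library, with a gene length. Whole numbers (exactly) make up 90% of its entries and 83.1% of the entries above 0, so the step that made these estimated counts is not known. The submitters' processing notes name FastQC 0.10.1, HTSeq, and DESeq2 in version 1.16.1. The aligner, genome build and strand setting are not known here. Fractional counts and overlapping genes can therefore mix reads of neighbours.

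Counts were rounded and tested with edgeR 4.0.16 in R 4.3.3, with limma 3.58.1. Library sizes were scaled by TMM, low genes removed by filterByExpr, and 1 quasi-likelihood model fitted to the 14 libraries, with 1 group a day (7 residual degrees of freedom, common biological coefficient of variation 0.045). The tests were 2-sided F tests for 12 comparisons and 1 test over all days, with Benjamini-Hochberg adjustment over 15712 genes. Genes with an adjusted p under 0.05 are the ones called higher or lower. An SE was computed as the size of the log2 fold change over the root of its F. List means use log2 CPM with a prior count of 2. The fit was tested on simulated data. Libraries held 20515126 to 24746010 counts, and the pairs of a day differed by more than sampling noise (chi-square per degree of freedom 1.8 at day 1 to 8.12 at day 0), so none was treated as a copy. This spread was widest at day 0, where the tests may therefore be too lenient.

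The genes, lists and comparisons were chosen with earlier results of these data known. Values in every library are given for the G1 pair, the regulators, and the 3 genes of each other group with the widest range of mean log2 CPM over days, with MKI67, PCNA, CDK1 and CCNB1 in any case; other genes are named where they go against their group, and TOP2A, NUSAP1 and CDC25C were named after their values were seen. From related lists the called genes with the largest rise and fall at day 8 against day 0 are named. Alternatives were RLE and upper-quartile scaling, no filter, a stricter filter, DESeq2 1.42.0, only the days compared, a replicate block, each library left out, and, chosen after seeing the data, removal of a length trend (lowess, span 0.3). Overlaps come from RefSeq's ARS1.2, used only for names and neighbours. No sequences were used here.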

Additional observations from a re-analysis of the deposited data

How the results depend on the processing

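Over 56 summary results and their alternatives, 1083 of 1098 values stayed within a set limit of the reported value. For a count the limit was 1.5 times the reported count, and for a median 0.0721 (the SD of a member's log2 CPM within a day). For the difference of the list means it was 0.0225, its pooled SD within days. A median near 0 could change sign within this limit. The relative median of the G2/M list at day 3 v day 0, reported as -0.045, lay between -0.096 and 0.014 with 1 library left out. The members called higher at day 8 against day 0 were 8, not 13, when only the 2 days compared were fitted. With the length trend removed, an alternative chosen after seeing the data, members called higher were 1, not 0, at day 4 and 3, not 7, at day 6, each against day 0, and members called lower at day 6 against day 4 were 4, not 2. Leaving out 1 library at a time gave these ranges: higher at day 2 v day 0, 1 to 3; higher at day 4 v day 0, 0 to 1; higher at day 8 v day 0, 7 to 12; lower at day 3 v day 2, 0 to 1; higher at day 4 v day 3, 1 to 3; lower at day 6 v day 4, 1 to 4. The relative median of the G2/M list at day 4 v day 3 lay between -0.647 and -0.565. In these fits the lone library is assumed to vary like the other days. Of 12672 alternative values of single genes, 12269 kept their side of the threshold, and 266 lost a call and 124 gained one with the sign kept. A further 13 turned sign and were called in the reported fit, the alternative or both. Turned signs of values called in neither were not counted. All 13 turned with the length trend removed, with log2 fold changes of CCNB2 0.048 at day 1 v day 0, MKI67 -0.341 at day 1 v day 0, -0.491 at day 3 v day 0, -0.758 at day 6 v day 0, CENPF -0.475 at day 2 v day 0, -0.086 at day 3 v day 0, -0.128 at day 6 v day 0, TYMS 0.076 at day 3 v day 0, 0.07 at day 6 v day 0, 0.025 at day 8 v day 0, CENPE -0.181 at day 3 v day 0, -0.375 at day 6 v day 0, CCNB1 0.148 at day 8 v day 0. The cause of these changes was not tested. No other scaling moved the median log2 fold change of all genes in a comparison by more than 0.086 (upper-quartile scaling at day 6 v day 0, 0.117 in place of 0.031). Same-numbered libraries did not deviate together (correlations between days of -0.096 to 0.069), so the replicate numbers were not taken to pair samples: with the replicate block, 9 members were called higher and 31 lower at day 8 v day 0 and 15 higher and 22 lower at day 1 v day 0, and over all 12 comparisons 10 of 459 calls were lost and none gained. The promoter motif counts were not run, since no promoter sequences were used here. Depth limits the low genes most: the smallest count of a member in a library was 97 (E2F2).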
